A study of Mus musculus with 3 samples.

Results

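The Olfr genes of one interval of mouse chromosome 7 encode olfactory receptors and were examined for accessible chromatin in whole brain. They were all protein-coding genes with an Olfr symbol and a number whose midpoint lies between 102 and 109 Mb of chromosome 7 (mm10). The rule found 193 genes among 21631 protein-coding genes on chromosomes 1 to 19 and X. It left 70 other protein-coding genes in the same interval and 917 Olfr genes elsewhere. No measured value entered the rule. On the near side of its edges lay Olfr543, with 1, 3 and 3 peaks in the v3, v2 and v1 libraries, and Olfr519, with 1, 0 and 0. On the far side lay Olfr521, with 1, 1 and 0, and Olfr522, with 1, 6 and 1.

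The data came from single-nucleus ATAC-seq by combinatorial indexing, in which the transposase Tn5 places barcoded adapters in open chromatin and a nanowell chip supplies the other barcode. Brains of C57BL6 mice were profiled with 3 versions of the preparation, named sciATACv3, sciATACv2 and sciATACv1 and written here as v3, v2 and v1. There was 1 library per version, with no stated treatment. How many nuclei and animals went in, the animals' age and sex, and how the versions differ were not stated in these sources. The peak lists held 512023, 850991 and 622754 peaks in v3, v2 and v1. They give positions only, pooled over nuclei, so a region open in few nuclei and one weakly open in many cannot be told apart, and barcodes and depth are unknown. Since no version has a replicate, no test was made and every interval is an exact 95% interval for counting error only. A gene without a peak is a gene for which no peak was listed, which does not show that its chromatin was closed.

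Olfactory receptors are G protein-coupled receptors of the olfactory sensory neurons in the nose, each of which expresses mainly a single receptor gene from a single allele. Mammals have class I receptors, related to those of fish and known for carboxylic acids and other polar odorants, and class II receptors, which make up most of the family. In mouse, most class I genes stand in a single cluster on chromosome 7 and depend on a long-range enhancer called the J element. Most receptor genes lie in closed, heterochromatic DNA even in the neurons of the nose, and the brain's own cells rarely express them.

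The name class I fits only some of these 193 genes. By the MOR family names among the gene table's synonyms, where family numbers below 100 denote class I, 123 were class I, 64 were class II and 6 could not be assigned. The 6 were Olfr596, Olfr605, Olfr652, Olfr681, Olfr687 and Olfr715b. Olfr605 carries a name from each class. The genes fell into 3 arrays separated by at least 500 kb. The array from Olfr543 to Olfr692 spanned 2.89 Mb (chr7:102476773-105369317) with 126 members, of which 121 were class I, none was class II and 5 were unassigned. The array from Olfr693 to Olfr716 spanned 0.471 Mb (chr7:106677534-107148329) with 25 members, of which 24 were class II. The array from Olfr467 to Olfr519 spanned 1.08 Mb (chr7:107814586-108894405) with 42 members, of which 40 were class II and 2 were class I. Class and array therefore nearly coincide and cannot be told apart here.

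RefSeq promoter windows (GRCm38.p6, 250 bases before to 50 after the listed start) were found for 170 of the 193 genes. In 131 of them, 77.1%, the base at the listed start opened an ATG, against 5 of the 57 other genes of the interval that have a window. The gene span was a multiple of 3 in 163 of the 193 genes. Many of these gene models thus begin at the start codon, and a transcript start farther upstream lies outside the window. The first 3 sequences are from members with a peak over the window. Olfr648 was the only member with a peak there in all 3 libraries, and Olfr577 and Olfr692 had a peak there in v3 and v2. The last 2 are contrasts from members with no peak over the window, namely Olfr568, with no peak in any library within 5 kb, and Olfr702, a class II gene with peaks nearby. Capitals mark matches on either strand to TAATNA, a homeodomain-type motif, the palindromic EBF-type motif, or TATAAA, the TATA box.
Olfr648: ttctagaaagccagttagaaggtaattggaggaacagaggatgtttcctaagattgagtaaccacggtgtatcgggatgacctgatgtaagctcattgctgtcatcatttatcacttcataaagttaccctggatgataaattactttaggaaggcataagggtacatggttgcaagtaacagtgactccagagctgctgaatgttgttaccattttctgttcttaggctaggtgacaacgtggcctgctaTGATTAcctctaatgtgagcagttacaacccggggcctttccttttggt
Olfr577: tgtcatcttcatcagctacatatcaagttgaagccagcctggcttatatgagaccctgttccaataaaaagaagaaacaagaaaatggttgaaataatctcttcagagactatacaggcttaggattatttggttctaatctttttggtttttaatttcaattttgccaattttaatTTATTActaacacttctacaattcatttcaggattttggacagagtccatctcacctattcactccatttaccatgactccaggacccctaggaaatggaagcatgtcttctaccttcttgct
Olfr692: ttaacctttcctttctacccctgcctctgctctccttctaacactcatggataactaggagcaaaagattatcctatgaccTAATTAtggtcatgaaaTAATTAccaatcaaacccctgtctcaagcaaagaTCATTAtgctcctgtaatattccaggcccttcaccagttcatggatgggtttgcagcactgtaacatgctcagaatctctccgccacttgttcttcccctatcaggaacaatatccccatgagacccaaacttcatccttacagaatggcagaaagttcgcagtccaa
Olfr568: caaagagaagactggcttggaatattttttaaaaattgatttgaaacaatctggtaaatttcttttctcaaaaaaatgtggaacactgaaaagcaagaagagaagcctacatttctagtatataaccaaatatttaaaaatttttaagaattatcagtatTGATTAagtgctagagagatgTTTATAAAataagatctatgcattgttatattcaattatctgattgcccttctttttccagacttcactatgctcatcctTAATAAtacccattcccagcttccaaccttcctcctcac
Olfr702: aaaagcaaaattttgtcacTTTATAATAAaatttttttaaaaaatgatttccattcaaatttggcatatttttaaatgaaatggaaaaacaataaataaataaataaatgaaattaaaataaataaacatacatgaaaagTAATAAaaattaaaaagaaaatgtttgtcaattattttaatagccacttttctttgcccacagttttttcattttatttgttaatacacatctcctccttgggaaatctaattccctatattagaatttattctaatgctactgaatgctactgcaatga
The Olfr648 window is chr7:104180357-104180656 on the minus strand and the Olfr577 window is chr7:102973941-102974240 on the minus strand. The Olfr692 window is chr7:105368078-105368377 on the plus strand. The Olfr568 window is chr7:102876872-102877171 on the plus strand and the Olfr702 window is chr7:106826694-106826993 on the minus strand.

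The promoter windows of these genes were poor in G and C. Their median GC content was 36.7%, against 35.0% for 778 windows of Olfr genes elsewhere, 51.5% for 70 windows of the interval's other genes (some of the 57 genes have several windows) and 53.0% for all 32619 windows of the table. They held a median of 1 CG dinucleotide, against 7 over the whole table. TAATNA matched in 114 of the 170 windows, 67.1%, against 26.4% of all windows of the table. TAATTA, a form of that motif whose matches are also matches to TAATNA, occurred in 23, 13.5%, against 5.25% of all. TATAAA occurred in 76, 44.7%, against 13.7%. The EBF-type motif occurred in 1 window, 0.588%, against 0.907%. The shares in Olfr windows elsewhere were 65.6% for TAATNA and 40.2% for TATAAA, so both kinds of Olfr window lay on the same side of the whole table. These motifs are rich in A and T, as are the windows, and a match is a description of letters, not evidence of a bound site.

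Accessible regions were sparse around these genes in the brain. Within the gene span and 5 kb on each side, 61 of the 193 genes had a peak in v3, 61 in v2 and 65 in v1. These shares were 31.6% (25.1 to 38.7%), 31.6% (25.1 to 38.7%) and 33.7% (27.1 to 40.8%), against 87.2%, 90.2% and 88.8% of all protein-coding genes in v3, v2 and v1. Of the interval's other genes, 62, 61 and 57 of 70 had a peak. Of Olfr genes elsewhere, 28.5% (25.6 to 31.5%), 50.4% (47.1 to 53.7%) and 36.8% (33.6 to 40.0%) had one in v3, v2 and v1. These intervals overlapped those of the members in v3 and v1 and not in v2. The median member had 0 peaks in each library and the highest counts were 7, 9 and 5. A peak in all 3 libraries was found for 33 genes, 17.1%, against 18.6% of Olfr genes elsewhere and 85.7% of all protein-coding genes. No peak in any library was listed for 98 genes, 50.8%, against 38.9% of Olfr genes elsewhere and 8.06% of all. The windows of these genes are short, with a median gene span of 954 bp against 10210 bp for the other genes of the interval, so density was used for the next comparison.

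Peak density in the members' windows was 4.87, 5.56 and 5.58 times lower than around the other genes of the interval in v3, v2 and v1. The joined windows covered 2.11 Mb and held 80, 97 and 85 peaks in v3, v2 and v1, each counted once by its midpoint. This gave 38.0 (30.1 to 47.3), 46.1 (37.4 to 56.2) and 40.4 (32.2 to 49.9) peaks per Mb. Around the interval's other genes the density was 185, 256 and 225 peaks per Mb in v3, v2 and v1. The ratio was 0.205 (0.159 to 0.262) in v3, 0.180 (0.143 to 0.224) in v2 and 0.179 (0.141 to 0.226) in v1. Peaks covered 2.59%, 2.87% and 2.21% of the members' bases, against 17.8%, 21.4% and 17.1% around the other genes.

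The size of that gap depended on where the other genes lie. Among the 70, 27 stand between receptor genes inside the first array and 43 lie outside all arrays. Those inside had 54.4, 76.5 and 44.3 peaks per Mb in v3, v2 and v1, against 227, 314 and 283 for those outside. Receptor windows over windows of the genes inside gave ratios of 0.699 (0.447 to 1.12) in v3, 0.602 (0.410 to 0.901) in v2 and 0.911 (0.565 to 1.53) in v1. The interval excluded 1 in v2 and included it in v3 and v1. These ratios set members of all 3 arrays against genes of the first. The first array's members alone had 47.7, 58.6 and 53.5 peaks per Mb, with ratios of 0.877 (0.553 to 1.43), 0.765 (0.514 to 1.16) and 1.21 (0.742 to 2.04) to the genes inside. All 3 intervals include 1, and the ratio in v1 is above it. Against the genes outside the arrays the ratios were 0.167, 0.147 and 0.143, with upper bounds of 0.214, 0.183 and 0.180. Within the first array, receptor genes and the genes among them were thus not separable in density at these counts. In v3, v2 and v1, 70.4% (49.8 to 86.2%), 74.1% (53.7 to 88.9%) and 55.6% (35.3 to 74.5%) of the genes inside had a peak. For the first array's members it was 39.7% (31.1 to 48.8%), 37.3% (28.9 to 46.4%) and 43.7% (34.8 to 52.8%). These intervals overlapped in v1 alone, and windows of the genes inside are longer. Over the promoter window, 11, 11 and 10 of 23 genes inside had a peak, against 4, 9 and 6 of 109 members. The listed starts of these groups are unlike.

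**Figure D1:**
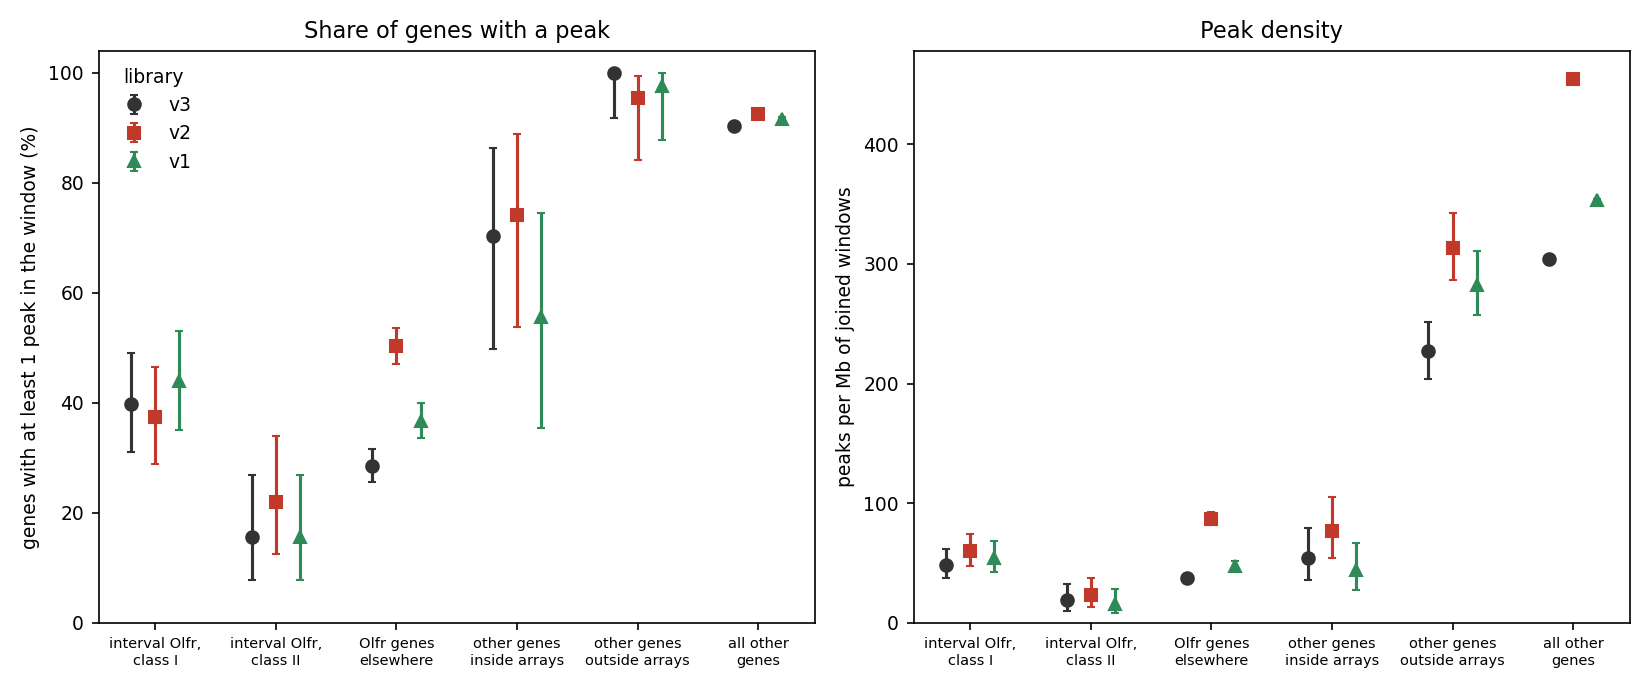
Share of genes with a peak in the window (left, percent) and peaks per Mb of joined windows (right) for the class I and class II Olfr genes of the interval, Olfr genes elsewhere, the interval's other genes inside and outside the arrays, and all protein-coding genes but Olfr genes. Points are the v3, v2 and v1 libraries and bars are exact 95% intervals for counting error, and the receptor groups and the genes inside the arrays lie below the genes outside them in both panels.

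The class I genes had more peaks than the class II genes of the interval in each library. A peak was present for 49, 46 and 54 of 123 class I genes in v3, v2 and v1, or 39.8%, 37.4% and 43.9%. It was present for 10, 14 and 10 of 64 class II genes, or 15.6%, 21.9% and 15.6%. Density was 48.3, 59.8 and 54.4 peaks per Mb for class I, against 18.8, 23.1 and 15.9 for class II. The ratio of class I over class II was 2.57 (1.40 to 5.09) in v3, 2.59 (1.50 to 4.74) in v2 and 3.42 (1.80 to 7.17) in v1. All 3 intervals lay above 1. A peak in all 3 libraries was found for 28 class I and 4 class II genes, and none in any library for 50 class I and 44 class II genes.

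The class II genes of the interval also had fewer peaks than the 896 class II genes elsewhere. Elsewhere, 28.3% (25.4 to 31.4%) had a peak in v3, 50.3% (47.0 to 53.7%) in v2 and 36.8% (33.7 to 40.1%) in v1. The interval's class II shares had upper bounds of 26.9%, 34.0% and 26.9% in v3, v2 and v1. The intervals of the 2 groups overlapped in v3 and did not in v2 and v1. Among other chromosomes with at least 27 Olfr genes, the shares ran between 20.5% on chromosome 14 and 57.1% on chromosome 6 in v3, and between 17.9% and 78.6% on the same chromosomes in v1. The share in v2 was 23.1% on chromosome 14 and 78.6% on chromosome 6. The 193 genes lay inside these ranges.

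Along the chromosome, peaks were most frequent in the first array. The members with the highest counts, Olfr692 and Olfr544, stand at the last and the second place in it, and most others with many peaks lie between them or in the array from Olfr693. Counted over the whole stretch and not only in gene windows, that array held 41.1, 56.7 and 46.7 peaks per Mb in v3, v2 and v1. The array from Olfr693 held 19.1, 36.1 and 19.1 per Mb. The array from Olfr467 held 11, 12 and 13 peaks in all in v3, v2 and v1, close to equal although the v2 list is the longest. It also held the longest run of members with no peak in any library, 11 genes beginning with Olfr486 and ending with Olfr498. Runs of 8 began with Olfr503 in the same array and with Olfr600 in the first. The longest stretch free of peaks in all 3 libraries was 187 kb in the first array (chr7:104713202-104900427), and the median gap between regions there was 3.89 kb. The median gap was 10.1 kb in the array from Olfr693 and 26.1 kb in the array from Olfr467, against 0.716 kb over all chromosomes.

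**Figure D2:**
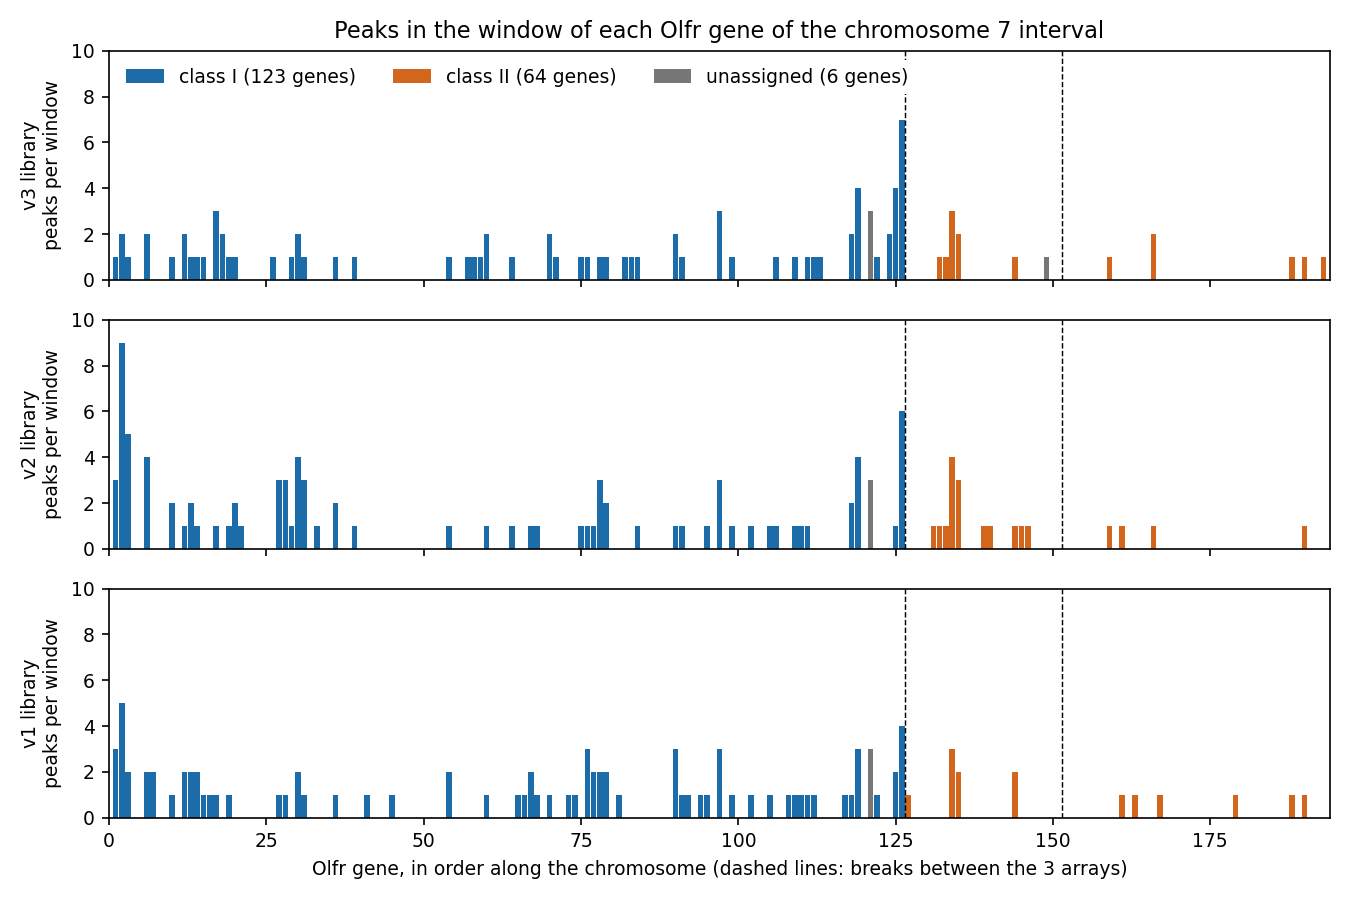
Number of peaks in the window of each of the 193 Olfr genes in order along chromosome 7, in the v3, v2 and v1 libraries from top to bottom, with class by colour and dashed lines between the 3 arrays. Bars are taller and closer together on the left, among the class I genes, and the tallest are Olfr544 with 9 peaks in v2 and Olfr692 with 7 in v3.

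The relation to the nearest other gene could not be compared between arrays, since few members near one lie outside the first array. Of 16 members within 20 kb of a non-Olfr gene, 9, 8 and 8 had a peak in v3, v2 and v1. Of 81 members at 20 to 100 kb the numbers were 23, 23 and 31, and of 96 farther away they were 29, 30 and 26. In the first array 8 of 11 near members had a peak in each library. At 20 to 100 kb it was 21, 21 and 29 of 68, and at 100 kb or more 21, 18 and 18 of 47. In the array from Olfr693 it was 1, 0 and 0 of 4 near members, against 5, 9 and 3 of 15 at 100 kb or more. The 1 near member of the last array had none. In the first array and the array from Olfr693, the shares of members near and at 100 kb or more had overlapping intervals in each library. By density, near members of the first array had 124, 185 and 147 peaks per Mb in v3, v2 and v1. At 20 to 100 kb it was 33.1, 35.7 and 47.2, with no interval overlapping that of near members. At 100 kb or more it was 53.6, 63.9 and 43.3, with intervals overlapping those of near members in v3 alone. In the array from Olfr693 near members had 24.1, 0 and 0 per Mb, against 42.4, 66.6 and 30.3 at 100 kb or more. There the intervals overlapped in each library. The windows of 8 members overlapped the window of a non-Olfr gene. Of 26 members with a gene span over 1.2 kb, 15, 14 and 14 had a peak, against 46, 47 and 51 of the 167 shorter ones. A long span also makes a long window.

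The member with the most peaks was Olfr692, a class I gene at the edge of the first array that is also known from the vomeronasal organ. Its window held 7 peaks in v3, 6 in v2 and 4 in v1. It lies 1894 bp from Fam160a2, a gene of the endosome transport machinery. The widest peak in any member's window, 3077 bp in v3 (chr7:105372200-105375276), stood in that window but over Fam160a2 and Gm5901. A peak lay over the Olfr692 span itself in each library, 985 bp wide in v3, 1280 bp in v2 and 1272 bp in v1. Its share of the v3 list was 1.94 times that of the v2 list (0.558 to 6.98) and 2.13 times that of the v1 list (0.541 to 9.92). Both intervals include 1.

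At the other end of the first array, Olfr543, Olfr544 and Olfr545 form the whole MOR42 family of the interval, and each had a peak in every library. Olfr544 responds to azelaic acid and is also known from liver and fat. It had 2 peaks in v3, 9 in v2 and 5 in v1. In v2, 5 of the 9 overlapped its 4194-bp span, each 500 bp wide, against 0 in v3 and 1 in v1. Olfr545 had 1, 5 and 2, and Olfr543 had 1, 3 and 3, in v3, v2 and v1. The windows of Olfr544 and its neighbours overlap, so these counts share peaks. All 3 genes were lowest in v3. For Olfr544 the share in v3 was 0.369 times that in v2 (0.0388 to 1.78), an interval that includes 1.

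The members of the MOR18 family are Olfr557, Olfr558 and Olfr78, and each had a peak in all 3 libraries. Olfr78 is a receptor for short-chain fatty acids known from kidney and carotid body. It had 3 peaks in v3, 1 in v2 and 1 in v1. The shared one lay at the high-coordinate end of its span, 1550 bp wide in v3 (chr7:102758105-102759654), 735 bp in v2 and 713 bp in v1. Of these, the v3 peak alone also reached the window of Olfr560, which had 2, 0 and 0 peaks in v3, v2 and v1. Olfr558, also known from blood vessels, had 1, 1 and 2 peaks in v3, v2 and v1. Its v2 peak overlapped the edge of the window by 20 bp. That peak and 1 of its v1 peaks were also counted for Olfr557. Olfr690 had 2 peaks in v3 and none in v2 or v1.

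Other members with many peaks were spread over the first and the middle array. Olfr577, of the MOR7 family, had 2, 4 and 2 peaks in v3, v2 and v1. In v3 one of them was 2530 bp wide (chr7:102973555-102976084). The same stretch held 3 peaks of 1240, 1150 and 528 bp in v2 and 2 of 763 and 500 bp in v1, so the count there reflects how each list divides a region. Olfr648, of the MOR31 family, had 2, 1 and 3 peaks, and the one over its start was 500 bp wide in v3, 919 bp in v2 and 500 bp in v1. Olfr685 had 4, 4 and 3, Olfr656 had 3 in each, and Olfr687, whose listed span of 48745 bp is the longest of the members, had 3 in each. Olfr550 had 2, 4 and 2, and Olfr691 had 4, 1 and 2. The class II members with the most peaks were the neighbours Olfr701, with 3, 4 and 3, all within its span, and Olfr702, with 2, 3 and 2, in the array from Olfr693.

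Genes with no peak in any library stood among those with many. The first 6 along the chromosome were Olfr547, Olfr549, Olfr552, Olfr553, Olfr555 and Olfr568, all class I. The nearest peak to Olfr555 lay 5523 bp away in v3, 5528 bp in v2 and 5535 bp in v1, just past the window. For Olfr547 it lay 17352, 17259 and 9826 bp away. Of the larger families, MOR204, a class II family with 31 members, had 5 members with a peak in any library and 0 with a peak in all 3. MOR32 had 8 of 11 with a peak in any library and MOR31 had 7 of 11, both class I. MOR283, class II, had 6 of 12.

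Peaks seldom lay at the listed start of a receptor gene. That start opened an ATG in 131 of the 170 windows, against 5 of the interval's 57 other genes with a window. The starts compared are thus unlike, and a transcript start farther upstream lies outside the window. A peak over the promoter window was found for 4, 9 and 6 of 170 members in v3, v2 and v1, or 2.35% (0.645 to 5.91%), 5.29% (2.45 to 9.81%) and 3.53% (1.31 to 7.52%). Over all protein-coding genes with a listed window the shares were 72.5%, 77.6% and 72.3%. For Olfr genes elsewhere they were 4.91%, 7.75% and 3.75%. A peak there in any library was found for 11 members, all class I. It was found in all 3 libraries for Olfr648 alone, against 69.7% of all genes in all 3. None of the 58 listed class II windows had one, which with counting error allows up to 6.16%. Class II genes elsewhere did have such peaks, over 5.01%, 7.78% and 3.69% of 758 windows in v3, v2 and v1. Among those 11 windows the sequence printed for Olfr692 holds 3 of the capital matches and that of Olfr648 holds 1. TATAAA occurred in 1 of the 11 and in 45 of the 91 windows of members with no peak in any library, and TAATNA in 6 and in 74. Median GC content was 40.7% and 34.7% in these groups, so the motif counts and base composition differ together.

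Around the listed start the members' profile had no sharp rise like that of the other genes. Many of the members' gene models begin at the start codon, so their listed starts are unlike those of the other genes. In bins of 1 kb out to 5 kb on both sides, between 3.53% and 9.41% of members had a peak in v3, between 5.88% and 8.82% in v2 and between 2.94% and 7.06% in v1. The highest v3 bins lay upstream, with 13, 14 and 16 of 170 members in the bins centred at -3500, -2500 and -1500 bp, or 7.65%, 8.24% and 9.41%, against 3.53% to 5.29% in the bins after the start. In v2 the bins before the start held 5.88% to 7.65% and those after it 5.88% to 8.82%. Just before and just after the start, 70.2% and 73.7% of 57 non-Olfr genes of the interval had one in v3, 71.9% and 77.2% in v2 and 66.7% and 71.9% in v1. Over all bins, Olfr genes elsewhere stayed between 5.04% and 8.01% in v3, between 9.43% and 15.2% in v2 and between 5.81% and 8.53% in v1.

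**Figure D3:**
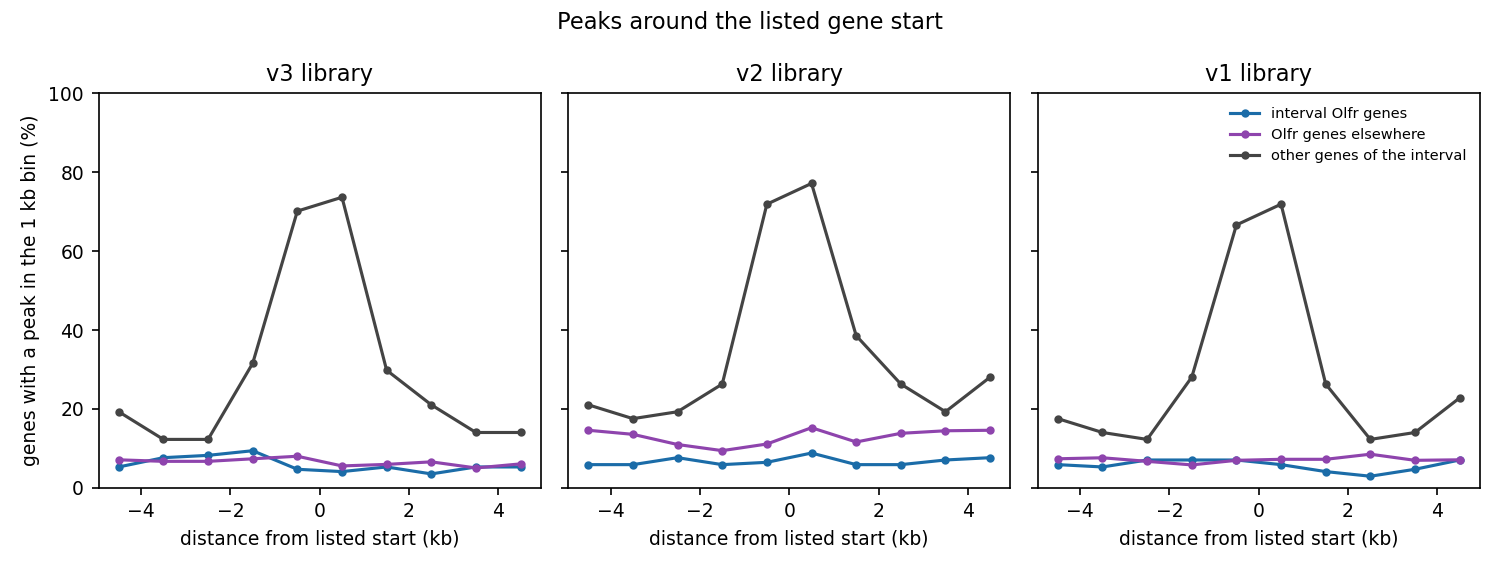
Percent of genes with a peak in each 1-kb bin, by distance from the listed start in kb, in the v3, v2 and v1 libraries from left to right, for the Olfr genes of the interval, Olfr genes elsewhere and the interval's other genes. The other genes of the interval rise to between 66.7% and 77.2% at the start, and both receptor lines reach no higher than 15.2%.

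The regions near these genes were mostly found in a single library. Joining the peaks of the 3 libraries gave 163 regions in the members' windows. Of them 31 were found in every library, 34 in 2 libraries and 98 in 1. The share in all 3 was 19.02% (13.3 to 25.9%), against 17.1% near Olfr genes elsewhere, 43.4% near the interval's other genes and 39.0% of all regions. Of the 98, 25 were from v3, 36 from v2 and 37 from v1. Over all chromosomes, 311900 regions were in 1 library, 55869 from v3, 215687 from v2 and 40344 from v1. Near Olfr genes elsewhere it was 716, with 112 from v3, 479 from v2 and 125 from v1. Of the 163 regions, 46 overlapped a member's span, 2 overlapped the span of a non-Olfr gene and 29 stood in the windows of 2 members. The 31 shared regions included those at Olfr544, Olfr577, Olfr648, Olfr685, Olfr692 and Olfr701. Of the members' v1 peaks, 49.4% (38.5 to 60.4%) met a v2 peak, against 90.8% of the whole v1 list. Of their v3 peaks, 62.7% (51.3 to 73.0%) met a v2 peak, against 86.3% of the whole v3 list. Near Olfr genes elsewhere the shares were 74.2% (70.2 to 77.9%) of v1 peaks and 70.6% (66.0 to 74.9%) of v3 peaks.

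Most of the peaks had the minimum width of the lists, 500 bp. That was 69.9% (58.8 to 79.5%) of the members' peaks in v3, 67.3% (57.1 to 76.5%) in v2 and 88.5% (79.9 to 94.3%) in v1. For the interval's other genes it was 44.4%, 50.5% and 57.4%, and for the whole lists 42.2%, 53.1% and 59.8%. Near Olfr genes elsewhere it was 49.2% (44.2 to 54.1%), 66.5% (63.4 to 69.5%) and 77.8% (74.0 to 81.3%). These intervals overlapped those of the members in v2 and v1 and not in v3. All 12 class II peaks of v1 were 500 bp wide. Whether a minimum-width peak is a weaker one was not tested, since the lists hold no height or score.

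**Figure D4:**
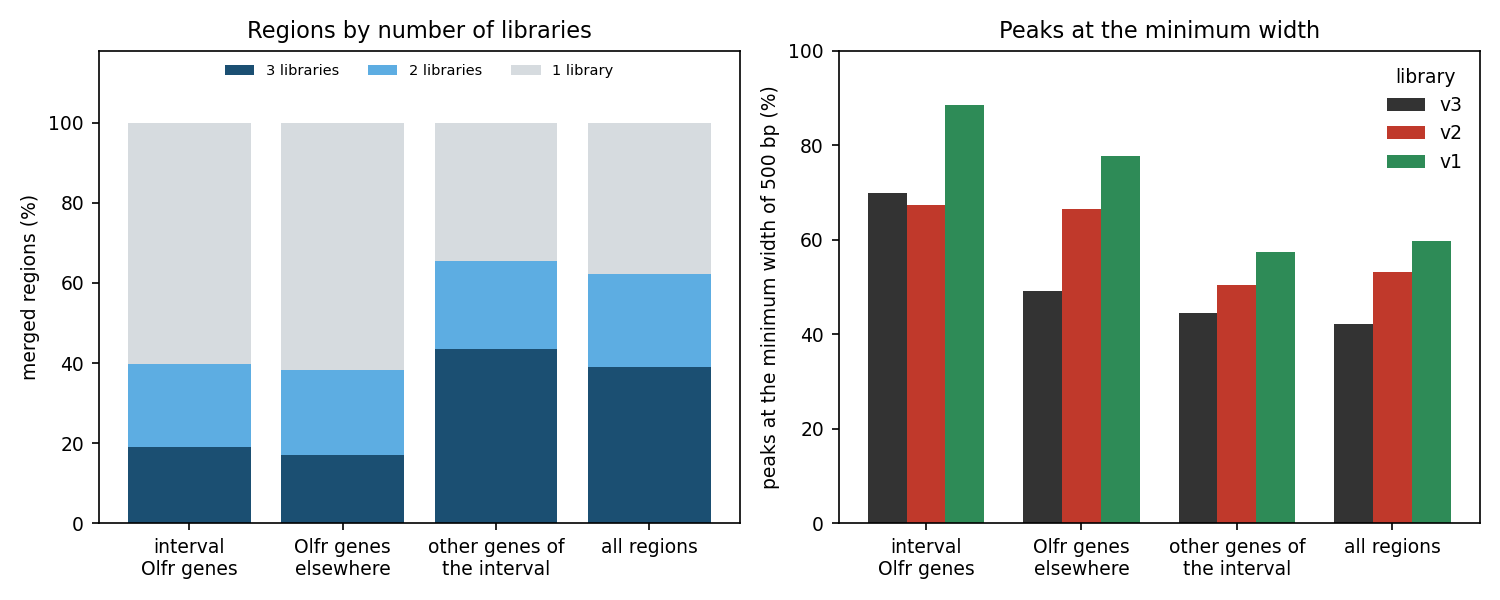
Left, percent of joined regions with a peak in 3, 2 or 1 libraries, and right, percent of peaks with the minimum width of 500 bp in v3, v2 and v1, near the Olfr genes of the interval, near Olfr genes elsewhere, near the interval's other genes and over all regions or peaks. Near the interval's Olfr genes 19.02% of regions are in all 3 libraries, and 69.9%, 67.3% and 88.5% of peaks have the minimum width.

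Between libraries, the peaks of the members were compared as shares of each list, since the lists differ in length. The members' windows took 0.0156% of the v3 list, 0.0114% of the v2 list and 0.0136% of the v1 list. The ratio of v3 over v2 was 1.37 (1.01 to 1.86), that of v3 over v1 was 1.14 (0.833 to 1.57) and that of v2 over v1 was 0.835 (0.618 to 1.13). Around the interval's other genes the ratios were 1.201 (1.05 to 1.37) for v3 over v2 and 0.833 (0.734 to 0.946) for v2 over v1, on the same sides of 1 as for the members, while v3 over v1 included 1 (0.871 to 1.15). Near Olfr genes elsewhere they were 0.708 (0.628 to 0.798), 0.954 (0.834 to 1.09) and 1.35 (1.21 to 1.51). The interval's members and the Olfr genes elsewhere thus lay on opposite sides of 1 for v3 over v2, with intervals that do not overlap. For v2 over v1 the intervals of these groups did not overlap either. The v3 over v2 ratio of the members falls to 0.776 when only gene spans are counted.

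For single members the counts were too low to rank the versions. In v3 over v2, 23 members were more than 2-fold higher and 19 were more than 2-fold lower, against 3.64% and 6.64% of all protein-coding genes, which is 11.9% and 9.84% of the members. Of these, 14 and 15 rested on a single peak. In v3 over v1, 26 were higher and 29 were lower, against 5.61% and 5.09% of all genes. In v2 over v1, 18 were higher and 31 were lower, against 5.79% and 2.66%. In these pairs 115, 105 and 110 members had no peak in either library, so the members' log2 share ratios had a median of 0 each time, against 0.09, 0.05 and 0 over all genes. Among members with at least 6 peaks in all, Olfr691 had the highest v3 over v2 ratio, 6.65 (0.658 to 327), which includes 1.

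Within the first array, the embedded gene families differed in their peaks. Of the 12 Trim genes, which encode RING-type ubiquitin ligases with roles in antiviral defence, 11, 9 and 10 had a peak in v3, v2 and v1, and 10, 8 and 9 had one over the promoter window. Trim34b was the member of that group with none in any library. Of the 5 Usp17l genes, which encode deubiquitinating enzymes, 0, 2 and 0 had a peak. Of the array's 126 receptor genes, 50, 47 and 55 had a peak, or 39.7%, 37.3% and 43.7%. With only 5 genes, the Usp17l shares had upper bounds of 52.2%, 85.3% and 52.2% in v3, v2 and v1. Per Mb of joined windows, the Trim genes, whose spans are long, had 56.2, 71.8 and 53.1 peaks in v3, v2 and v1, and the array's receptor genes had 47.7, 58.6 and 53.5. The beta-globin genes also lie there, with 1, 3 and 1 peaks for the adult gene Hbb-bt and 0, 1 and 0 for Hbb-bs in v3, v2 and v1. Hbb-bh2 had 1, 0 and 0, and the embryonic genes had 1, 1 and 0 for Hbb-bh1 and 2, 2 and 0 for Hbb-y. The 28.1 kb between Hbb-y and Olfr66, where the globin locus control region is known to lie, held 3, 2 and 4 peaks. Outside the arrays, Nup98, a nuclear pore gene among the 5 with the most peaks per kb of window, had 60, 60 and 54 peaks.

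The genes that olfactory receptors signal through, or that take part in their choice, lie mostly on other chromosomes. All 26 genes of such a list had a peak in each library, against 87.2%, 90.2% and 88.8% of all protein-coding genes, with medians of 19, 28 and 21.5 peaks in v3, v2 and v1. Of 22 with a listed promoter window, 19, 20 and 19 had a peak over it, against 72.5%, 77.6% and 72.3% of all genes with one. Those with a peak in each library included the cyclase gene Adcy3, the transcription factor genes Lhx2 and Ebf1, and Ldb1. Cnga4 and Cngb1, channel subunits of the sensory neuron, had none over it in any library, and Cnga2, the main subunit, had one in v2 only. Cnga4 is itself one of the 70 other genes of the interval, with 6, 8 and 6 peaks in its window. The 7 olfactory sensory neuron markers had a median of 6, 9 and 6 peaks, and the 4 brain neuron markers 39.5, 43 and 43.5. Several of the signalling genes are known from brain cells too, and the windows differ in length.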

How the data were processed

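The authors deposited 1 peak list per library, with chromosome, start and end only. ArchR, MACS2 and build mm10 are named per the submitters' processing notes, without versions or settings. Gene spans, synonyms and promoter windows were RefSeq's for GRCm38.p6, the same build.

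A gene window was the span with 5 kb on each side, and a peak counted from 1 bp of overlap. Densities used joined windows and peak midpoints. For log2 share ratios, 0.5 peaks scaled to list length were added, and 2-fold was the limit for counts. Intervals were Clopper-Pearson for shares, Poisson for densities and conditional binomial for ratios. Python 3.11.15, numpy 2.4.6, pandas 2.3.3, scipy 1.17.1 and matplotlib 3.10.9 were used. Overlap counting was checked on a made-up peak list. Ratios and their intervals were checked on simulated counts of genes with more v1 peaks than any member had. The members' own counts were not simulated.

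Named were the 12 members with the most peaks, the first 6 with none, those with a promoter peak in all libraries, the 3 highest and 3 lowest share ratios per pair among members with at least 6 peaks, Olfr78, Olfr558, Olfr544 and Olfr690, and the globin genes. The 5 other genes of the interval with the most and the fewest peaks per kb are named only in part. Members and lists were chosen with earlier results of these data known. Arrays, distance and span-length groups and family counts were added after seeing the data, and genes named for them were chosen likewise. Alternatives changed the flank, peak width, overlap rule, member set, comparison genes and measure.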

Additional observations from a re-analysis of the deposited data

How the results depend on the processing

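Of 75 values recomputed with another setting, 45 stayed within the counting interval of the reported value. The shares of members with a peak moved with the window, in v3, v2 and v1: 7.25%, 11.4% and 9.84% for the span alone, 12.4%, 15.0% and 15.5% with 1 kb, and 59.1%, 63.7% and 66.8% with 20 kb. Peaks wider than 500 bp alone gave 11.9%, 14.5% and 4.66%, density ratios to the other genes of 0.111, 0.117 and 0.0497, and share ratios of 2.03 for v3 over v1 and 1.95 for v2 over v1. Gene spans alone gave a v2 density ratio of 0.311, turned v3 over v2 to 0.776 and gave 1.16 for v2 over v1. Class I members alone gave 39.8% in v3 and 43.9% in v1, and density ratios of 0.233 in v2 and 0.242 in v1. Covered bases gave 0.145, 0.134 and 0.129. Against Olfr genes elsewhere the density ratio was 1.02 in v3 (0.795 to 1.31), above 1 with an interval that includes it. It was 0.530 (0.425 to 0.653) in v2 and 0.854 (0.671 to 1.08) in v1, whose interval includes 1. In alternatives chosen after seeing the data, genes inside the arrays gave 0.699, 0.602 and 0.911, and class II members alone gave shares of 15.6%, 21.9% and 15.6% and density ratios of 0.102, 0.0902 and 0.0706. The cause of these shifts was not tested. No paired analysis was possible because each version has 1 library. Depth is unknown, so members without a peak cannot be set against a detection limit.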
